A study of Mus musculus with 6 samples.

Results

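The Fos, Jun, Egr and Nr4a transcription factors studied here are 10 immediate early genes, taken by symbol from a deposited table of 23029 genes: Fos, Fosb, Jun, Junb, Jund, Egr1, Egr2, Nr4a1, Nr4a2 and Nr4a3. They were measured by RNA-seq in sorted dorsal root ganglion (DRG) cells of mice whose genotype is given as GINIP+/mcherry, that is, with mCherry at an allele of GINIP, a modulator of inhibitory G protein signalling. All 6 libraries carry this genotype, and no age is given in the labels. DP cells were IB4+GINIP+, stained by isolectin B4 and positive for the reporter, and are labelled Mrgprd+ neurons, non-peptidergic nociceptors of the skin. C-LTMR cells were IB4-GINIP+ and are labelled as C-fibre low-threshold mechanoreceptors. DN cells were IB4-GINIP- and are what remained after both gates. Each of the 3 subsets had 2 libraries, and values are given for both, replicate 1 before replicate 2. No untreated or unsorted library was among them, so the subsets are compared only with each other. Whether replicates stand for separate animals is not stated in the labels, so the p-values reflect only how these libraries vary, and that variation may be technical.

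Immediate early genes are transcribed within minutes of a stimulus from factors already present in the cell, without new protein synthesis. Calcium, cyclic AMP and MAP kinase signals reach their promoters through CREB at cyclic AMP response elements (CRE) and through serum response factor (SRF) at CArG boxes. Fos and Jun proteins pair as AP-1, Egr proteins are zinc finger factors, and Nr4a proteins are orphan nuclear receptors. In sensory neurons Fos, Egr1 and Jun are widely used as readouts of stimulation or injury, and enzymatic dissociation and sorting are also known to induce these genes in many tissues.

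RefSeq promoters of build GRCm38.p6 matched 9 of the 10 genes, all but Egr1, and a link between these sequences and the levels was not tested. In the 250 bases before an annotated start, the CRE core TGACG, searched on both strands, was found in 7 of these 9 genes, against 17.8% of 32851 promoters of the same length. The full palindrome TGACGTCA, which contains the core on both strands, was in 0 of 9, against 1.55%. A CArG box was in 1 of 9, Egr2, against 1.47%, and the AP-1 site TGANTCA in 0 of 9, against 6.75%. Bases further upstream were not searched for any motif, so a gene without a match may hold one there. The EGR site GCGNGGGCG was in 3 of 9, against 4.70%. The wider AP-1-like site TGANNTCA, of which the full palindrome is a case, was in Jun and Jund, 2 of 9, against 11.9%. The NBRE AAAGGTCA, the element that Nr4a proteins bind, was in 0 of 9, against 1.34%, and the TATA box TATAAA in 2 of 9, against 12.4%. Egr2 has 5 annotated starts and counts where any of them had a match, and a match is a description of the letters, not of a bound site. Jun and Jund had no CRE core. All 9 tested factors, with or without the core, were called lower than in DN, so these calls cannot bear on the motif. The level of Nr4a3, which had the core, was not tested. The stretch of Egr2 shown is that of the start at which the deposited table begins the gene, and 2 of its other starts had no CRE core. The last 150 bases before the start are shown for 5 of the genes that hold a CRE core there. Nr4a2 and Nr4a3 also hold one there and are not shown. CRE cores, on either strand, and the CArG box of Egr2 are in capitals.
Fos (chr12:85473740-85473889, plus strand): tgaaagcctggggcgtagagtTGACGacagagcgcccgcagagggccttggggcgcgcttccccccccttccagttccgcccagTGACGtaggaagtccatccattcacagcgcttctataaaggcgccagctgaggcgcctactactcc
Fosb (chr7:19310046-19310195, minus strand): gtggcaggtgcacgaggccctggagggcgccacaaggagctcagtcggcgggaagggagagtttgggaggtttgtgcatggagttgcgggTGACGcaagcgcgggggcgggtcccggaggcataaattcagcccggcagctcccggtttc
Junb (chr8:84978749-84978898, minus strand): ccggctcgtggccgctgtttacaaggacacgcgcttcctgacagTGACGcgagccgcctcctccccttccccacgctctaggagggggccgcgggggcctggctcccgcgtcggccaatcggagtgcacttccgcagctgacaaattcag
Egr2 (chr10:67537719-67537868, plus strand): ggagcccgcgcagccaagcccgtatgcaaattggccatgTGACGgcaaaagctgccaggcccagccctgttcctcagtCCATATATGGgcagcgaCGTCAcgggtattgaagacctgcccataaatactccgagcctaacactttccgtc
Nr4a1 (chr15:101266696-101266845, plus strand): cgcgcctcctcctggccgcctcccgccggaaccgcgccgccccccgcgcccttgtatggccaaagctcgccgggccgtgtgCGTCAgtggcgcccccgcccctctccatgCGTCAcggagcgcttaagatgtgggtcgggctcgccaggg

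The values are the authors' RPKM, reads scaled to the length of the gene and the total of the library, which allow levels of different genes to be compared. From steps in the low values, the libraries were estimated to hold 32.2 to 41.9 M reads. Replicates correlated across genes on the log2 scale with r = 0.996 for DP, r = 0.994 for C-LTMR and r = 0.986 for the DN pair, a description over genes, which are not replicates. A difference was tested with limma on log2(RPKM + 0.5) over 12820 genes with a mean RPKM of at least 0.5 and was called where the p adjusted by Benjamini-Hochberg (BH) was under 0.05 and the log2 fold change reached 1 in either direction. Of the 10 factors, 9 were tested and Nr4a3 lay under the filter. The 9 tested factors were at 2.13 RPKM or more in every library, so the filter did not depend on a single subset. The subset markers that the sort did not use mostly followed the labels. Of 8 Mrgprd+ nociceptor markers, 7 were called higher and 0 lower in DP over C-LTMR, and 8 higher in DP over DN. Of 8 C-LTMR markers, 0 were called higher and 7 lower in DP over C-LTMR, and 8 higher in C-LTMR over DN. Of all genes tested, 4.52% were called higher and 6.85% lower in DP over C-LTMR. Higher were 6.66% in DP over DN and 7.32% in C-LTMR over DN. Gfra2, on both lists, was not called between DP and C-LTMR. Mrgprd had 220 and 277 RPKM in DP against at most 2.01 RPKM in any other library, and Th, tyrosine hydroxylase, had 1017 and 1038 RPKM in C-LTMR against at most 61.7 RPKM elsewhere.

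The 9 tested factors were far lower in DP and in C-LTMR than in DN. All 9 tested factors were called lower in DP than in DN, where 20.4% of all genes tested were called lower and 6.66% higher. All 9 were also called lower in C-LTMR than in DN, where 18.5% of genes were called lower and 7.32% higher. The DN libraries lay above those of DP for all 10 factors, against 49.9% of genes tested, and above those of C-LTMR for all 10, against 43.5%. Between DP and C-LTMR, 0 of 9 were called, where 4.52% of genes were called higher and 6.85% lower. Both DP libraries lay above both C-LTMR libraries for 8 of 9, against 30.8% of genes. Jund was the exception in size, with the smallest difference from DN and nearly the same level in DP and C-LTMR. In pools of sorted cells, fewer cells of a type and less RNA per cell cannot be told apart.

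**Figure D1:**
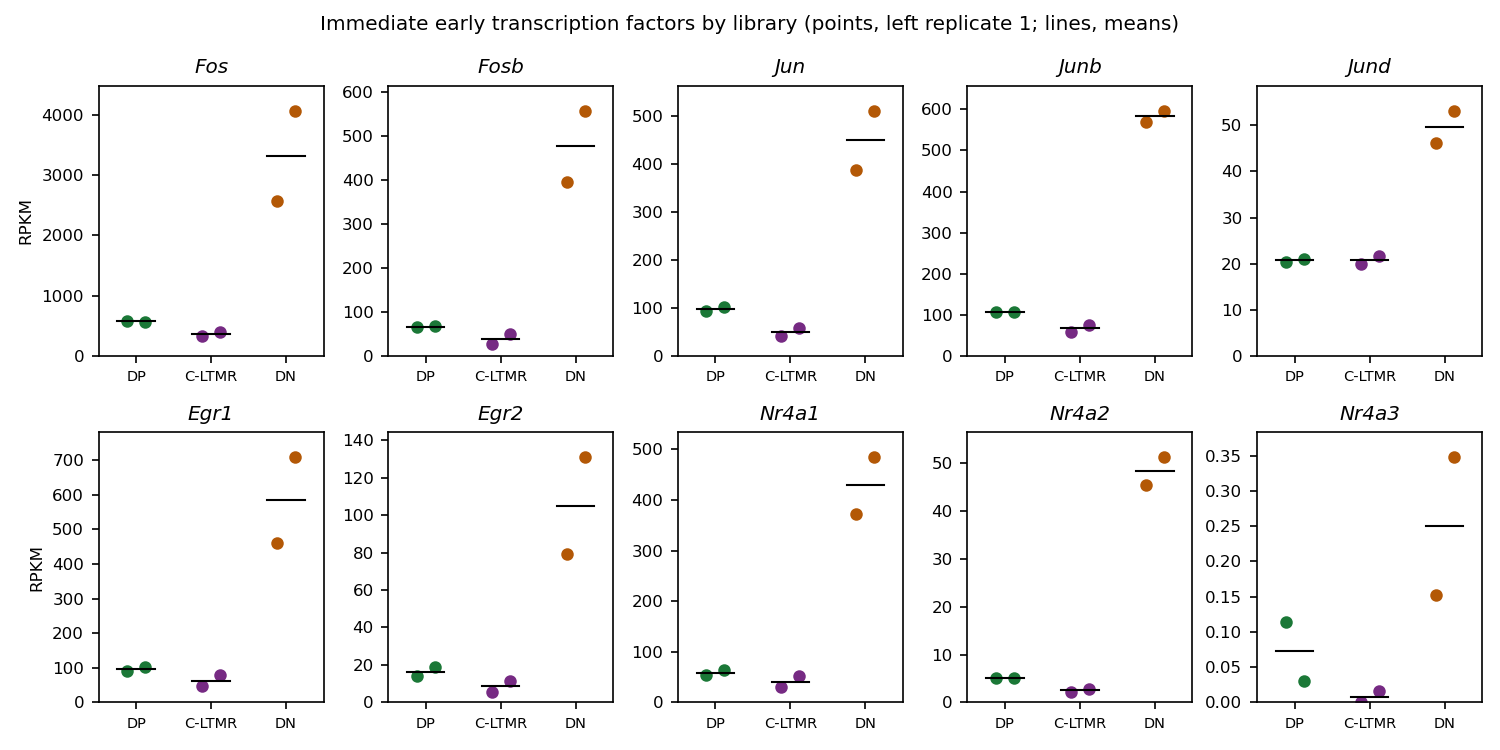
RPKM of the 10 factors in each library (vertical axes, linear and starting at 0, with a scale of their own for each gene); points are libraries, with replicate 1 at left, and lines are subset means. The DN points lie above all others in each panel, and the DP points lie above the C-LTMR points except for Jund.

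Fos, the partner of Jun in AP-1 and a widely used marker of neuronal activity (Entrez 14281, chromosome 12, 85473901 to 85477270, GRCm38), had 583 and 559 RPKM in DP, 325 and 394 RPKM in C-LTMR, and 2569 and 4068 RPKM in DN. The groups did not overlap, and the DN libraries differed from each other by 58.3% of the lower one. Among all 23029 genes Fos ranked 91 and 96 in DP, 186 and 152 in C-LTMR, and 8 and 3 in DN. It was called lower in DP than in DN at -2.50 on the log2 scale (SE 0.215, limma BH-adjusted p = 9.96e-05) and in C-LTMR than in DN (-3.17, SE 0.215, limma BH-adjusted p = 3.67e-05). Between DP and C-LTMR the log2 fold change was 0.67, with a 95% interval from 0.16 to 1.18 before adjustment over genes, and did not pass (limma BH-adjusted p = 0.057).

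Fosb, a second Fos protein whose truncated splice form persists in neurons (Entrez 14282, chromosome 7, 19302696 to 19310045), had 65.9 and 67.7 RPKM in DP, 27.1 and 48.9 RPKM in C-LTMR, and 396 and 558 RPKM in DN. The C-LTMR libraries were further apart than the DP libraries, but the groups did not overlap. The log2 fold change was -2.80 in DP over DN (SE 0.277, limma BH-adjusted p = 0.000183) and -3.67 in C-LTMR over DN (SE 0.277, limma BH-adjusted p = 5.82e-05). Its 0.87 in DP over C-LTMR did not pass (limma BH-adjusted p = 0.057). With C-LTMR replicate 2 left out it reached 1.29 and was called (limma BH-adjusted p = 0.0111). The RPKM ratio of Fos to Fosb within a library was 8.84 and 8.25 in DP, 12.0 and 8.06 in C-LTMR, and 6.49 and 7.30 in DN.

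Among the Jun genes, Jun, whose protein is phosphorylated by the JNK kinases and accumulates in injured neurons and Schwann cells (Entrez 16476, chromosome 4, 95049036 to 95052222), had 93.6 and 102 RPKM in DP, 41.1 and 58.9 RPKM in C-LTMR, and 388 and 511 RPKM in DN. The groups did not overlap. The log2 fold change was -2.18 in DP over DN (SE 0.197, limma BH-adjusted p = 0.000124) and -3.17 in C-LTMR over DN (SE 0.197, limma BH-adjusted p = 2.49e-05). At 0.98 in DP over C-LTMR it passed the p criterion but not the fold criterion (SE 0.197, limma BH-adjusted p = 0.01). Its value was between 1.01 and 1.24, and called, under 6 of 18 alternatives: 3 scalings (median-of-ratios, quantile and pan-sensory-neuron), the TMM-normalized table, and the fits without DP replicate 1 or without C-LTMR replicate 2. Its reads could include those of the antisense gene Junos, which overlaps its first bases in GENCODE, since the use of strand is not given in the sources used here.

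Junb, a Jun protein often opposed to Jun in its targets (Entrez 16477, chromosome 8, 84976909 to 84978748), had 106 and 108 RPKM in DP, 59.3 and 74.2 RPKM in C-LTMR, and 569 and 597 RPKM in DN. It was the factor with the closest DN libraries, which differed by 4.86%. Against DN the log2 fold change was -2.44 in DP (SE 0.118, limma BH-adjusted p = 1.02e-05) and -3.13 in C-LTMR (SE 0.118, limma BH-adjusted p = 4.55e-06). DP over C-LTMR gave 0.69, past the p criterion but under the fold criterion (SE 0.118, limma BH-adjusted p = 0.00542).

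Jund, which many resting cells express and which is less inducible than Jun and Junb (Entrez 16478, chromosome 8, 70697739 to 70700616), had 20.4 and 21.0 RPKM in DP, 20 and 21.7 RPKM in C-LTMR, and 46.1 and 53.2 RPKM in DN. DP and C-LTMR overlapped and DN lay above both. The log2 fold change was -1.24 in DP over DN (SE 0.102, limma BH-adjusted p = 8.21e-05) and -1.23 in C-LTMR over DN (SE 0.102, limma BH-adjusted p = 8.67e-05). In DP over C-LTMR it was -0.01 with a 95% interval from -0.25 to 0.23 (limma BH-adjusted p = 0.962), and its sign changed under 6 alternatives, up to 0.13 when libraries were scaled to pan-sensory-neuron genes. An antisense gene, Gm11175, lies within the Jund interval in GENCODE, with the same limit on strand. A further fit, chosen after the values were seen, took every gene relative to Jund of the same library. Jund had the smallest difference from DN and nearly the same level in DP and C-LTMR, so the directions in this fit were fixed by that choice. Its p-values are therefore no separate support. In it the other 8 tested factors were lower in DP than in DN by more than Jund was. These excess differences ran from -0.94 (Jun, under the fold criterion) to -1.90 (Nr4a2) in log2 units, and the highest limma BH-adjusted p among them was 0.00093, for Egr2. In C-LTMR against DN they ran from -1.90 for Junb to -2.80 for Nr4a2, and the highest limma BH-adjusted p was 1.87e-05, again for Egr2. In DP against C-LTMR they ran from 0.58 for Nr4a1, which did not pass (limma BH-adjusted p = 0.0806), to 1.0 for Egr2, the one called there (limma BH-adjusted p = 0.0274).

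Shares and ratios within a library do not depend on scaling between libraries. Jund made up 9.27% and 9.07% of the summed RPKM of the 3 Jun genes in DP, 16.6% and 14.0% in C-LTMR, and 4.59% and 4.58% in DN. Jun and Junb shared most of the rest, with Jun at 42.6% and 44.2% in DP, 34.1% and 38.1% in C-LTMR, and 38.6% and 44.0% in DN. Jun was thus 4.59 and 4.87 times the level of Jund in DP, 2.05 and 2.72 times in C-LTMR, and 8.41 and 9.61 times in DN, with no overlap between subsets.

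**Figure D2:**
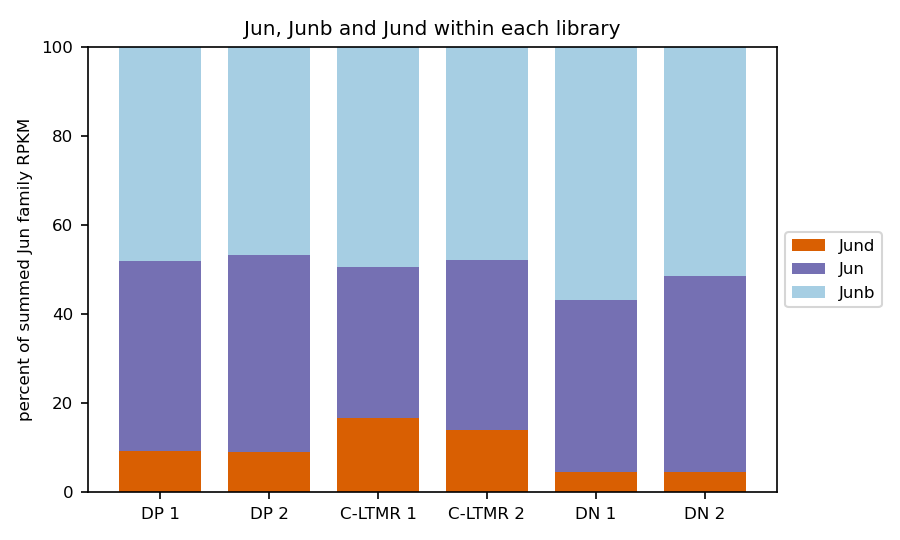
Share of Jund (bottom), Jun (middle) and Junb (top) in the summed RPKM of the Jun genes (vertical axis, percent) in each library. Jund takes 9.27% and 9.07% in the DP libraries, 16.6% and 14.0% in the C-LTMR libraries, and 4.59% and 4.58% in the DN libraries.

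Egr1, a zinc finger factor also known as Zif268 or NGFI-A (Entrez 13653, chromosome 18, 34861207 to 34864956), had 90.1 and 103 RPKM in DP, 48.3 and 78.0 RPKM in C-LTMR, and 462 and 709 RPKM in DN. DN lay above the other subsets, and the lower DP library was above the higher C-LTMR library. The log2 fold change was -2.56 in DP over DN (SE 0.269, limma BH-adjusted p = 0.000244) and -3.21 in C-LTMR over DN (SE 0.269, limma BH-adjusted p = 9.04e-05). Its 0.65 in DP over C-LTMR did not pass (SE 0.269, limma BH-adjusted p = 0.121).

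Egr2, also known as Krox20 and required for myelination by Schwann cells (Entrez 13654, chromosome 10, 67537869 to 67542188), had 14.0 and 19.0 RPKM in DP, 5.40 and 11.6 RPKM in C-LTMR, and 79.2 and 131 RPKM in DN. It had the widest spread between replicates among the tested factors, with SE 0.373 on the log2 scale. It was called lower in DP than in DN at -2.60 (limma BH-adjusted p = 0.00102) and lower in C-LTMR than in DN at -3.60 (limma BH-adjusted p = 0.000234). Its 0.99 in DP over C-LTMR, with a 95% interval from 0.10 to 1.88, did not pass (limma BH-adjusted p = 0.0927). Without C-LTMR replicate 2 it was 1.51 and called (limma BH-adjusted p = 0.0286). Egr1 made up 84.5% to 89.9% of the summed RPKM of the pair in all 6 libraries, so the proportion of Egr1 to Egr2 varied little beside their level.

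Nr4a1, an orphan nuclear receptor also known as Nur77 or NGFI-B (Entrez 15370, chromosome 15, 101266846 to 101274794), had 53.5 and 63.9 RPKM in DP, 29.7 and 51.7 RPKM in C-LTMR, and 373 and 485 RPKM in DN. The DP and C-LTMR libraries almost touched. The log2 fold change was -2.85 in DP over DN (SE 0.261, limma BH-adjusted p = 0.000131) and -3.42 in C-LTMR over DN (SE 0.261, limma BH-adjusted p = 6.03e-05). DP over C-LTMR gave 0.57, with a 95% interval from -0.05 to 1.20 (limma BH-adjusted p = 0.151).

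Nr4a2, also known as Nurr1 and needed for midbrain dopamine neurons (Entrez 18227, chromosome 2, 57107226 to 57124003), had 5.04 and 5.05 RPKM in DP, 2.13 and 2.88 RPKM in C-LTMR, and 45.5 and 51.3 RPKM in DN. Replicates were closest in DP, while C-LTMR replicate 2 was 1.35 times replicate 1, and the groups did not overlap. It had the largest difference from DN among the tested factors, at -3.14 in DP (SE 0.142, limma BH-adjusted p = 7.77e-06) and -4.03 in C-LTMR (SE 0.142, limma BH-adjusted p = 3.57e-06). In DP over C-LTMR the log2 fold change was 0.89, past the p criterion but under the fold criterion (SE 0.142, limma BH-adjusted p = 0.00381). It was called under 3 alternatives, at 1.04 when scaled to pan-sensory-neuron genes, 1.07 in the TMM-normalized table and 1.08 with C-LTMR replicate 2 left out.

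Nr4a3, also known as Nor1 (Entrez 18124, chromosome 4, 48051248 to 48083352), was near the limit of detection, with 0.114 and 0.0306 RPKM in DP, 0 and 0.0164 RPKM in C-LTMR, and 0.153 and 0.348 RPKM in DN. Both DN values were above both DP values, and both DP values above both C-LTMR values. In a fit of all genes without a filter, 0 of its 3 comparisons were called, with limma BH-adjusted p of 0.682 in DP over C-LTMR, 0.16 in DP over DN and 0.074 in C-LTMR over DN. Within the Nr4a family Nr4a1 made up 89.1% to 94.7% of the summed RPKM in the 6 libraries, and Nr4a3 at most 0.193%.

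**Figure D3:**
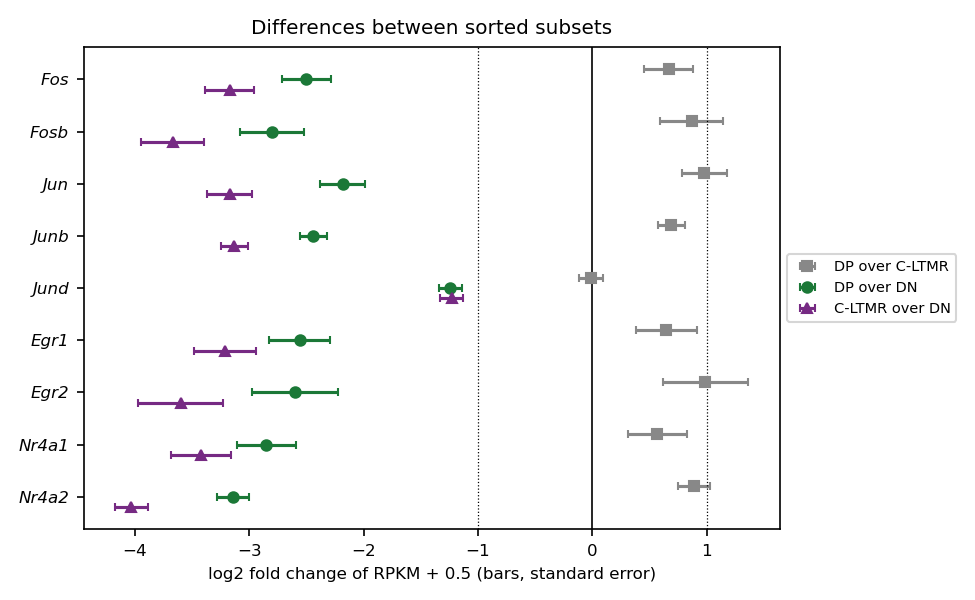
log2 fold changes (horizontal axis, with standard errors) of the 9 tested factors in DP over C-LTMR (squares), DP over DN (circles) and C-LTMR over DN (triangles); dotted lines mark the fold criterion. Differences from DN lie between -1.23 and -4.03, and those between DP and C-LTMR between -0.01 and 0.99.

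The median log2 fold change of the 9 was -2.56 in DP over DN and -3.21 in C-LTMR over DN, beside -0.13 and -0.04 over all genes tested. The DN libraries are shared by both comparisons, so these are not separate observations. For DP over C-LTMR, limma called 0 of 9, and 7 of 9 had an unadjusted p under 0.05, against 40.8% of genes in either direction. By p alone 3 of 9 (Jun, Junb and Nr4a2) were higher, against 12.4% of genes. With the replicate number as a block, 8 of 9 passed by p alone, all but Jund, against 14.4% of genes, and 0 passed the fold criterion as well. The median of the 9 was 0.69, beside -0.05 over all genes. Under each of the 3 scalings and in the TMM-normalized table, 1 to 2 factors were called in this comparison. Without C-LTMR replicate 2, Fosb, Jun, Egr2 and Nr4a2 reached log2 fold changes of 1.29, 1.24, 1.51 and 1.08. Without C-LTMR replicate 1 the same 4 were at 0.45, 0.73, 0.47 and 0.71. Jun was at 1.05 without DP replicate 1 and at 0.92 without DP replicate 2.

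Together the 10 factors took 0.230% and 0.233% of the summed RPKM of all genes in DP, 0.127% and 0.166% in C-LTMR, and 1.07% and 1.53% in DN. The proportions of the families changed little beside that. Fos and Fosb made up 62.9% and 59.7% of the factors' summed RPKM in DP, 63.1% and 59.7% in C-LTMR, and 60.2% and 64.6% in DN. The Nr4a family made up 5.69% and 6.58% in DP, 5.70% and 7.36% in C-LTMR, and 8.50% and 7.49% in DN. Libraries within a subset also differed together: replicate 2 was above replicate 1 for 9 of 9 factors in DN, 9 of 9 in C-LTMR and 8 of 9 in DP, where Fos was the exception.

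Other members of these families and partners in AP-1, a list of 18 genes of which 16 were tested, was also mostly lower in both GINIP+ subsets than in DN. In DP over DN 11 were called lower and 0 higher, with a median log2 fold change of -1.87, and in C-LTMR over DN 12 were lower and 0 higher, with a median of -2.31. Of all genes tested, 20.4% and 18.5% were called lower in these comparisons, and 6.66% and 7.32% higher. Maf, a large Maf protein, had 1.04 and 1.68 RPKM in DP, 1.03 and 1.54 RPKM in C-LTMR, and 10.2 and 19.4 RPKM in DN. Fosl2, the Fra-2 gene, had 5.80 and 6.01 RPKM in DP, 4.03 and 4.70 RPKM in C-LTMR, and 29.6 and 42.2 RPKM in DN. Both stood apart in DN, with log2 fold changes of -2.99 and -2.49 in DP over DN. Maff, a small Maf protein, was at -2.48 in the same comparison. Between DP and C-LTMR the list median was 0.12, and DP was called higher for 3 genes and lower for 0, against 4.52% and 6.85% of all genes tested. Egr4 had 1.79 and 2.09 RPKM in DP and 0.292 and 0.457 RPKM in C-LTMR, a difference of 1.48 in log2 units (SE 0.188, limma BH-adjusted p = 0.00139). Fosl1 had 0.643 and 0.606 RPKM in DP and was listed at 0 in both C-LTMR libraries (limma BH-adjusted p = 0.00733, and not called with a pseudocount of 1 or without a filter). Atf3, an AP-1 family factor induced in injured sensory neurons, had 192 and 199 RPKM in DP, 80.3 and 110 RPKM in C-LTMR, and 611 and 843 RPKM in DN. Its log2 fold change in DP over C-LTMR was 1.06 (SE 0.194, limma BH-adjusted p = 0.00707) and was 0.83, under the fold criterion, without C-LTMR replicate 1. Without a filter it also lost its call (limma BH-adjusted p = 0.0784), and limma treat, a test against a change of 1 log2 unit, called none of Egr4, Fosl1 and Atf3 here.

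A wider list of 43 immediate early and rapid response genes, all tested, was also mostly lower in both GINIP+ subsets than in DN. In DP over DN 33 were called lower and 0 higher, with a median of -2.35, and in C-LTMR over DN 36 were lower and 1 higher, with a median of -2.67. Of all genes tested, 20.4% and 18.5% were called lower in these comparisons, and 6.66% and 7.32% higher. Sgk1, a kinase gene induced by serum and glucocorticoids, had 1.81 and 1.77 RPKM in DP, 3.39 and 2.96 RPKM in C-LTMR, and 73.9 and 104 RPKM in DN, the largest difference of the list in DP over DN at -5.27 in log2 units (SE 0.168, limma BH-adjusted p = 2.97e-06). Ctgf, a matrix-associated target of SRF cofactors and YAP, had 0.224 and 0.239 RPKM in DP, 0.0973 and 0.0774 RPKM in C-LTMR, and 11.9 and 19.6 RPKM in DN. Arc, the synaptic activity gene, was at -3.49 in DP over DN, and Ier5 at -4.23 in C-LTMR over DN.

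Between DP and C-LTMR the median of the 43 was 0.21, and 4 genes were called higher and 2 lower in DP. Over all genes tested, 4.52% were called higher and 6.85% lower. Npas4, a factor induced by calcium entry and largely restricted to neurons, had 3.14 and 2.49 RPKM in DP, 0.327 and 0.265 RPKM in C-LTMR, and 6.78 and 4.68 RPKM in DN. Its log2 fold change was 2.05 in DP over C-LTMR (SE 0.193, limma BH-adjusted p = 0.000368), and it was not called in DP over DN, at -0.90, under the fold criterion (limma BH-adjusted p = 0.00637). Arl4d, a small GTPase gene, had 37.0 and 36.8 RPKM in DP, 7.90 and 6.63 RPKM in C-LTMR, and 47.5 and 39.6 RPKM in DN, at 2.27 in DP over C-LTMR (SE 0.125, limma BH-adjusted p = 4.95e-05). It did not pass in DP over DN, at -0.23 (limma BH-adjusted p = 0.153). Plk2, a kinase gene of synaptic homeostasis, was lower in DP than in C-LTMR, with 5.33 and 5.33 RPKM in DP, 15.2 and 18.1 RPKM in C-LTMR, and 37.4 and 44.6 RPKM in DN (-1.55 in DP over C-LTMR, SE 0.127, limma BH-adjusted p = 0.000209).

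**Figure D4:**
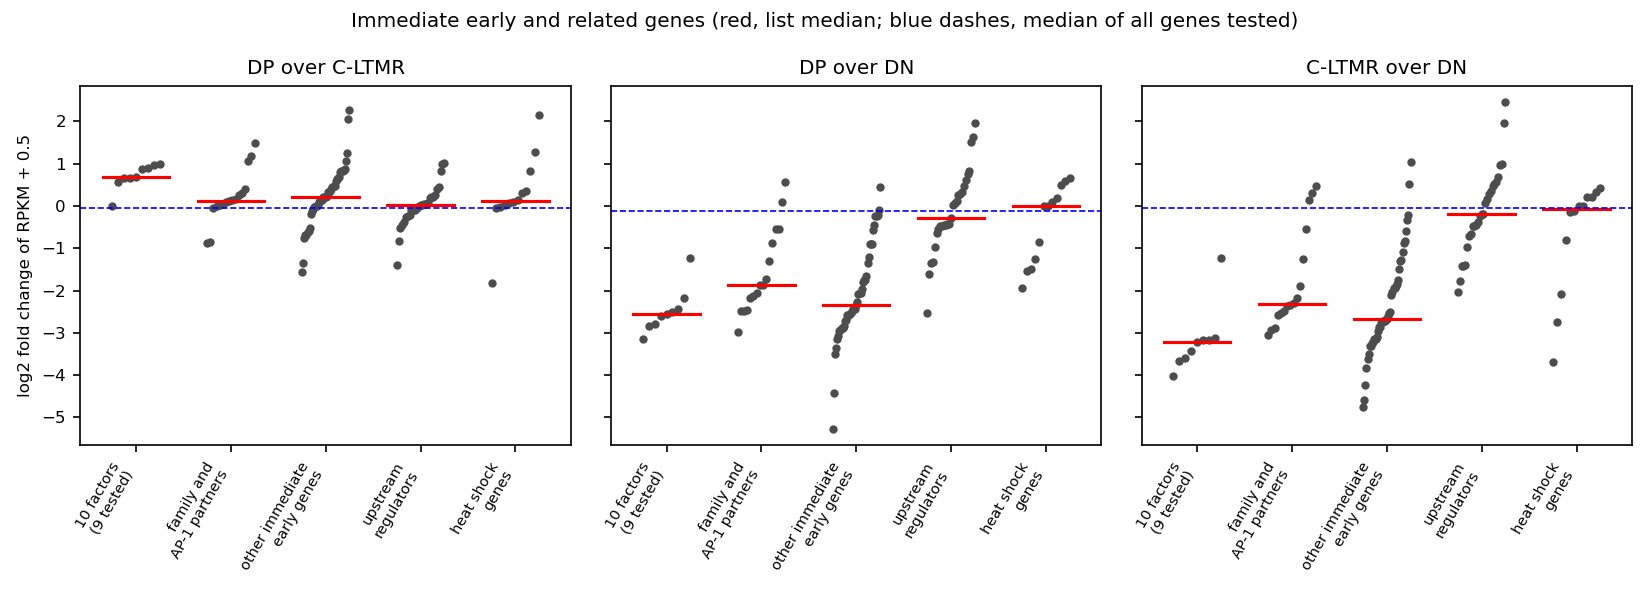
log2 fold change (vertical axis) of each tested gene of the 10 factors, family members and AP-1 partners, other immediate early genes, upstream regulators and heat shock genes in the 3 comparisons; red lines are list medians and the blue dashed line is the median of all genes tested. The first 3 lists have medians between -1.87 and -3.21 against DN, and those of the upstream regulators and heat shock genes lie between 0.01 and -0.28.

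The factors and kinases that act upstream, and the Nab pair, are set beside all genes tested. Of these, 20.4% were called lower and 6.66% higher in DP over DN, and 18.5% and 7.32% in C-LTMR over DN. In DP over C-LTMR the shares were 6.85% lower and 4.52% higher. Of 27 tested regulators, 3 were called higher and 4 lower in DP over DN (median -0.28), and 2 higher and 5 lower in C-LTMR over DN (median -0.19). Crem, whose inducible ICER form is itself a target of CREB, had 1.75 and 1.87 RPKM in DP, 2.54 and 3.03 RPKM in C-LTMR, and 11.1 and 15.0 RPKM in DN. Its log2 fold change was -2.54 in DP over DN (SE 0.166, limma BH-adjusted p = 3.11e-05). Rps6ka2, which encodes an RSK kinase downstream of ERK, had 18.1 and 19.1 RPKM in DP, 18.1 and 19.2 RPKM in C-LTMR, and 5.23 and 3.75 RPKM in DN (1.95 in DP over DN, SE 0.149, limma BH-adjusted p = 6.07e-05). Camk4, a calcium-dependent kinase that acts on CREB, was also higher in both GINIP+ subsets, at 1.62 in DP over DN and 2.45 in C-LTMR over DN. Between DP and C-LTMR 1 was called higher (Mapk10, the JNK3 gene, at 1.01) and 1 lower (Elk4, a partner of SRF, at -1.40), with a median of 0.03. Mapk10 fell under the fold criterion when DP replicate 1 (0.98) or C-LTMR replicate 2 (0.91) was left out, and Elk4 did with a pseudocount of 1 (-1.0), and limma treat called neither. Of the pair of NGFI-A binding repressors Nab1 and Nab2, Nab2 was lower in both GINIP+ subsets than in DN, with -2.44 for DP and -1.49 for C-LTMR, and 0 of 2 were called between DP and C-LTMR. The C-LTMR call was lost with limma treat.

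Heat shock genes were split. Of 12 tested, 0 were called higher and 4 lower in DP over DN (median 0.01), and 0 higher and 3 lower in C-LTMR over DN (median -0.07). Of all genes tested, 20.4% and 18.5% were called lower in these comparisons, and 6.66% and 7.32% higher. The inducible Hsp70 gene Hspa1a had 29.7 and 36.5 RPKM in DP, 4.77 and 10.2 RPKM in C-LTMR, and 66.5 and 141 RPKM in DN. Hspa1a and its near-identical neighbour Hspa1b may share reads. In DP over C-LTMR 2 were called higher, Hspa1a at 2.15 and Hspa1b at 1.27, and 1 lower, Hspb1 at -1.81 (list median 0.11), against 4.52% and 6.85% of all genes tested. The call of Hspa1b there was lost whichever of the 4 DP and C-LTMR libraries was left out, with limma BH-adjusted p between 0.103 and 0.163, and that of Hspa1a without DP replicate 2 (limma BH-adjusted p = 0.055). Hspa1a (-1.54) and Hspa1b (-1.48) in DP over DN lost their calls without DP replicate 1 (limma BH-adjusted p = 0.0806 for Hspa1a and 0.0516 for Hspa1b) and without DN replicate 2, where they were -1.0 and -0.86. Without a filter on low values, or with limma treat, neither was called in DP over C-LTMR or in DP over DN. Hsp90ab1, a constitutive chaperone named after its values were seen, had 2525 and 2445 RPKM in DP, 2456 and 2306 RPKM in C-LTMR, and 1854 and 1692 RPKM in DN.

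Markers of glia and vessels were also high in DN, though its label names remaining sensory neurons. For these and the marker lists that follow, shares over all genes tested serve as reference. They were 20.4% lower and 6.66% higher in DP over DN, and 18.5% and 7.32% in C-LTMR over DN. In DP over C-LTMR they were 6.85% lower and 4.52% higher. Of 16 markers of Schwann cells and satellite glia, 15 were called lower in DP than in DN (median log2 fold change -3.12). In C-LTMR over DN 15 were lower (median -3.09). In DP over C-LTMR 1 was called higher and 2 lower (median 0.02). The summed RPKM of the 16 was 1328 and 1824 in DP, 2444 and 3345 in C-LTMR, and 9156 and 18890 in DN. Apoe led the sum in DN with 62.4% and 68.4%. Pmp22 led it in DP replicate 1 (39.2%) and C-LTMR replicate 1 (49.2%), and Apoe in DP replicate 2 (47.8%) and C-LTMR replicate 2 (43.3%). None of the 16 was at 0 in any library.

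Of 17 endothelial, pericyte and fibroblast markers, 14 were lower in DP (median -3.63) and 15 lower in C-LTMR (median -4.73) than in DN, with 1 higher in C-LTMR. Their sum was 31.2 and 32.4 RPKM in DP, 87.2 and 93.2 RPKM in C-LTMR, of which Rgs5 made up 91.1% and 88.3%, and 542 and 844 RPKM in DN. Emcn was at 0 in C-LTMR replicate 2. The sum of 13 immune markers was 232 and 260 RPKM in DP, 5.54 and 10.03 RPKM in C-LTMR, and 63.4 and 115 RPKM in DN. Different genes led it: S100a9 in DP (43.8% and 44.1%), and Cd14 in C-LTMR (73.4% and 82.7%) and DN (31.7% and 36.2%). S100a9 and Itgam were at 0 in C-LTMR replicate 1 and S100a8 in C-LTMR replicate 2, while Cx3cr1 was at 0 in both. Of 8 tested immune markers, 4 were higher and 0 lower in DP over C-LTMR, 3 were higher and 1 lower in DP over DN, and 0 were higher and 7 lower in C-LTMR over DN. Of 3 tested red blood cell genes, 3 were lower in DP than in C-LTMR, 1 was lower in DP than in DN, and 2 were higher in C-LTMR than in DN.

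The neuronal lists differed among themselves. The summed RPKM of 17 pan-sensory-neuron genes was 13910 and 13430 in DP, 13500 and 12620 in C-LTMR, and 11980 and 8814 in DN, with 3 called higher and 2 lower in DP than in DN. Most peptidergic nociceptor markers were high in DN, with 5 of 6 tested called lower in DP and 5 of 6 lower in C-LTMR. The exception was Calcb, which encodes a CGRP peptide, with 576 and 521 RPKM in DP, 343 and 353 RPKM in C-LTMR, and 282 and 233 RPKM in DN, called higher in DP than in DN at 1.1 (limma BH-adjusted p = 0.000261). Of 7 myelinated neuron markers, 1 was called higher and 2 lower in DP than in DN. The part of these other cells in the levels of the immediate early factors was not tested.

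**Figure D5:**
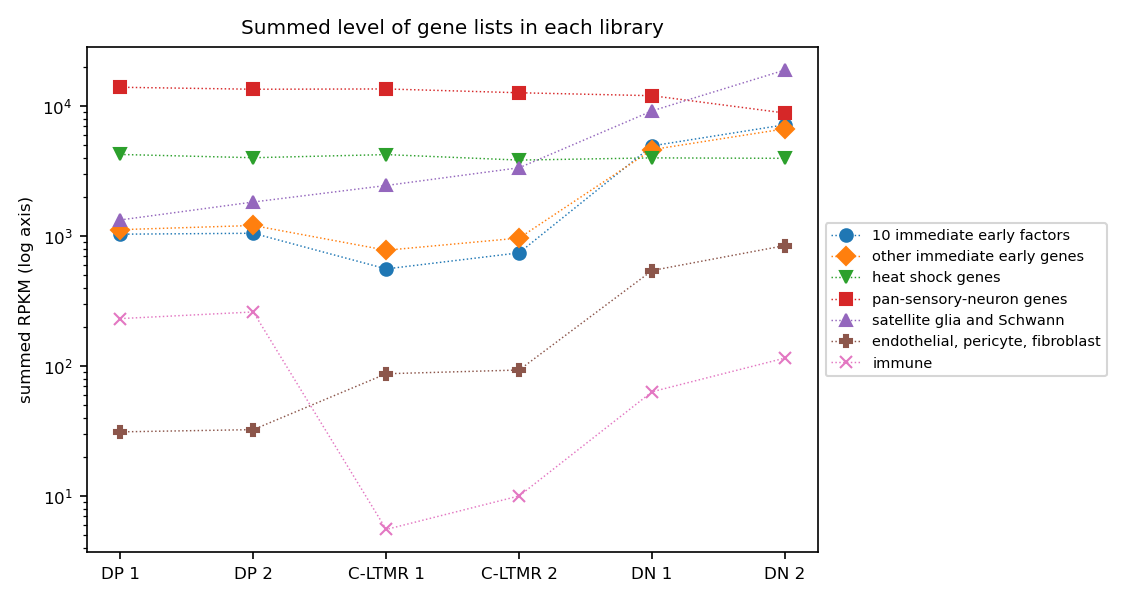
Summed RPKM (vertical axis, log scale) of the 10 factors and of marker lists in each library; dotted lines join the same list across libraries. The sum of the 10 factors is 1032 and 1049 in DP, 558 and 742 in C-LTMR, and 4928 and 7163 in DN, and that of the satellite glia and Schwann cell markers is 1328 and 1824 in DP, 2444 and 3345 in C-LTMR, and 9156 and 18890 in DN.

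The genes whose pattern over the 6 libraries was most like the mean of the 9 tested factors were Ier2, Fam176b, Sox10, Vwa1 and Col4a1. Likeness was the mean absolute difference of centred log2(RPKM + 0.5) values, among 634 genes with a mean of at least 1 RPKM and at least as wide a range. Ier2, itself an immediate early gene, was nearest, at a difference of 0.061 log2 units, with 77.4 and 85.3 RPKM in DP, 37.7 and 54.6 RPKM in C-LTMR, and 392 and 536 RPKM in DN. Sox10, the defining transcription factor of peripheral glia, was at 0.089, with 3.36 and 3.77 RPKM in DP, 1.35 and 2.59 RPKM in C-LTMR, and 16.5 and 26.3 RPKM in DN. Fam176b was at 0.08, Vwa1, a matrix protein gene, at 0.1, and Col4a1, a basement membrane collagen gene, at 0.104. Of the factors themselves, Egr1 was closest to their mean (0.072) and Jund farthest among those tested (0.709).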

How the data were processed

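Total RNA of FACS-sorted mouse DRG cells was, per the labels' protocols, amplified from 50 ng and made into TruSeq libraries. The authors deposited RPKM for 23029 genes and, for 6620 genes, TMM-normalized counts, a signal at a common library size that is not whole numbers. Per the submitters' processing notes they used CASAVA 1.8.2, edgeR 2.6.2 and GRCm38 (mm10), with roles, annotation and strand not given in the sources used here. Amplified reads without molecular identifiers are not independent molecules, so depth bounds counting error only.

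All 6 libraries entered a limma 3.58.1 fit (R 4.3.3, eBayes with a trend, 3 residual and 3.68 prior degrees of freedom) on log2(RPKM + 0.5), whose fold changes understate those of low genes. Depth came from low RPKM steps and both tables together. Of the low values, 39.2% to 59.5% per library came within 0.05 of whole reads, so no count model was fitted. Evenly spread values would give 10%, but depth was fitted to largely the same low values, which makes 10% too low a reference. Estimated reads of the tested factors ran from 244 (Nr4a2, C-LTMR replicate 1) to 275142 (Fos, DN replicate 2).

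Replicate numbers were taken to pair libraries only in the alternative fit with the replicate block, and the main fit used no pairing. The block was tried because deviations of same-numbered libraries correlated in all 3 pairs of subsets (r = 0.487, 0.126 and 0.326 over genes). That is a hint from the data and not from the labels. The factors, lists and tests were chosen with earlier results of these data known. All 10 factors are named. From the lists of family members and AP-1 partners, immediate early genes, upstream regulators and heat shock genes, counts and medians are given. Examples from them are up to 3 called genes of the largest change per comparison. From the marker lists and the Nab pair, counts are given for some or all comparisons, and medians only for some. Genes named from the marker lists were not all picked by size of change. The 5 genes of most like pattern are also named. Markers at 0 and Hsp90ab1 were named after their values were seen. The fit was tested on simulated data.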

Additional observations from a re-analysis of the deposited data

How the results depend on the processing

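All 9 tested factors kept their direction against DN under 18 alternatives in both comparisons, and their calls, except Jund under limma treat, which tests against a 2-fold change (-1.24 in DP over DN and -1.23 in C-LTMR over DN). With limma treat, calls were also lost for Egr4, Fosl1, Atf3, Elk4, Mapk10, Hspa1a and Hspa1b in DP over C-LTMR, for Hspa1a and Hspa1b in DP over DN, and for Nab2 in C-LTMR over DN. Fos in DP over DN ran from -2.83 to -2.17 and Jund from -1.46 to -1.09. In DP over C-LTMR, 0 factors were called, against 1 with median-of-ratios scaling, 1 with quantile normalization, 2 with scaling to pan-sensory-neuron genes, 2 from the TMM-normalized table, and 0 to 4 with a library left out. The direction held except for Jund, which was 0.08 with median-of-ratios scaling, 0.06 with quantile normalization, 0.13 with scaling to pan-sensory-neuron genes, 0.04 from the TMM-normalized table, and -0.07 to 0.05 with a library left out (0.01 without DP replicate 1, 0.05 with C-LTMR replicate 2 left out). By p alone 3 factors passed in DP over C-LTMR, against 5 with median-of-ratios scaling, 0 with limma treat and 8 with the replicate block. Higher by p alone were 12.4% of all genes tested, against 16.2%, 1.74% and 14.4% under these settings. Over all genes, 1457, 3470 and 3317 were called in DP over C-LTMR, DP over DN and C-LTMR over DN. These were 843, 1645 and 1562 in the TMM-normalized table, which holds fewer genes, and 624, 2204 and 2144 with limma treat. With the replicate block they were 1474, 3478 and 3319, and the block changed no call of a factor. In DP over DN 24.6% of calls were higher, against 43.5% with quantile normalization, and in C-LTMR over DN 28.3%, against 44.4% with quantile normalization, 15.9% with scaling to pan-sensory-neuron genes and 38.0% in the TMM-normalized table. In DP over DN the TMM-normalized table gave 37.4%. The median of all genes in DP over DN was -0.134, against 0.146 with quantile normalization, -0.359 with scaling to pan-sensory-neuron genes and -0.000638 with median-of-ratios scaling, and in C-LTMR over DN it was -0.042, against 0.155 with quantile normalization and -0.409 with scaling to pan-sensory-neuron genes. Leaving out a library moved no direction of the other 8 factors. Depth limits only Nr4a3 among the factors. The cause of the differences between settings was not tested.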
